A study of Mus musculus with 2 samples.

Results

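The 47 genes described here run and restrain the cell division cycle. They were taken from an RNA-sequencing table of mouse tongue by gene symbol, and each of the 47 had 1 row among the 18498 rows of the table, of which 18043 carried a symbol and which named 17850 different genes. By textbook role they comprised 9 regulators of G1 and of entry into S phase, 13 genes of DNA replication in S phase, 21 genes of G2 and mitosis and 4 inhibitors of cyclin-dependent kinases (CDKs). The table compares 2 tissues, each as 1 library. CvP stands for the circumvallate papillae, the trenched taste papillae at the back of the tongue, and Epi for tongue epithelium that holds no papillae. Both came from male mice of the C57BL/6J strain, 12 to 30 weeks of age and kept on normal chow, and RNA of at least 20 mice was pooled for each tissue. The pools average over animals and over all cell types in the dissected tissue. With no replicate, no difference below has a replicate check and no p-value is given.

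A cell commits to division in G1, when D-type cyclins with CDK4 or CDK6, and then E-type cyclins with CDK2, release E2F transcription factors from the retinoblastoma protein. Genes with E2F sites supply the helicase, the polymerase clamp and the nucleotides for replication, and a later wave of genes, many of them controlled through CCAAT boxes and the cell cycle genes homology region (CHR), builds the spindle and the kinetochores. In the tongue the dividing cells lie in the basal layer of the epithelium, while mature taste bud cells do not divide and are replaced throughout life by the progeny of basal cells.

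In their promoters the S phase and the mitotic genes shared the CCAAT box and differed in the other motifs searched. Windows from 250 bases before to 50 after the annotated start were taken from RefSeq (GRCm38.p6) and found for 37 of the 47 genes. Both strands were searched for an E2F site (TTTCCCGC, TTTCGCGC, TTTGCCGC or TTTGGCGC), for a CHR (TTTGAA or TTTAAA) and for the box CCAAT, and matches were allowed to overlap. Among 17 mitotic genes with a window, 15 (88.2%) held a CHR, 15 (88.2%) a CCAAT box and 14 (82.4%) both, beside 30.6%, 41.1% and 12.2% of all 27025 genes with a window. Among 11 S phase genes, 6 (54.5%) held an E2F site, beside 2.6% of all genes, whereas 1 of the 17 mitotic genes did. A CCAAT box was held by 8 of the 11 S phase genes (72.7%) and a CHR by 3 (27.3%). The S phase genes with an E2F site were *Cdc6*, *Cdt1*, *Mcm3*, *Mcm5*, *Mcm6* and *Mcm7*, and the mitotic gene was *Cdk1*. The 120 bases before the start are shown for 5 mitotic genes with both elements, for a mitotic gene with none of the letters, for S phase genes with and without an E2F site, and for an inhibitor. They read 5′ to 3′ along the strand of the gene, with every match in capitals: the CCAAT box (which reads ATTGG when it lies on the other strand), the CHR (TTTGAA or, on the other strand, TTCAAA, and TTTAAA on either) and in *Mcm6* the E2F sites. The stretches lie at chr7:122159315-122159434 (*Plk1*), chr5:30666766-30666885 (*Cenpa*), chr11:99024190-99024309 (*Top2a*), chr13:100786487-100786606 (*Ccnb1*), chr10:69352913-69353032 (*Cdk1*), chr2:119618178-119618297 (*Nusap1*), chr1:128359706-128359825 (*Mcm6*), chr7:102441575-102441694 (*Rrm1*) and chr6:134920281-134920400 (*Cdkn1b*), with *Top2a*, *Ccnb1*, *Cdk1* and *Mcm6* on the minus strand and the others on the plus strand.
Plk1: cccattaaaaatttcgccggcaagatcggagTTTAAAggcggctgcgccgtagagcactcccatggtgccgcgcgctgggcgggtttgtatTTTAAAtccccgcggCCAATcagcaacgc
Cenpa: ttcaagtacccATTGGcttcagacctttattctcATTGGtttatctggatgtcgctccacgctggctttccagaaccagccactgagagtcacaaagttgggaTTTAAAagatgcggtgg
Top2a: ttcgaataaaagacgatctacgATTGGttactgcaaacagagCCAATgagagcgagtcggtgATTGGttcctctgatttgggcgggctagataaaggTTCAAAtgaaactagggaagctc
Ccnb1: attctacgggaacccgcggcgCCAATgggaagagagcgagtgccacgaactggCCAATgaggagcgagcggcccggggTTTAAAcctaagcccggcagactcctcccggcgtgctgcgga
Cdk1: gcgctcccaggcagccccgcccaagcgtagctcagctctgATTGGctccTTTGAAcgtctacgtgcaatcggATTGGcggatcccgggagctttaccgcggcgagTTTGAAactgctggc
Nusap1: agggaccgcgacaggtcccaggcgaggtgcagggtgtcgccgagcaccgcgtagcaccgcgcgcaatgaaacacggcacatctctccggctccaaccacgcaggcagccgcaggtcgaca
Mcm6: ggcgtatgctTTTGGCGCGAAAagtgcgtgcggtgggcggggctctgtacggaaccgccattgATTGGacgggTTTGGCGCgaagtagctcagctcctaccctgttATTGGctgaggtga
Rrm1: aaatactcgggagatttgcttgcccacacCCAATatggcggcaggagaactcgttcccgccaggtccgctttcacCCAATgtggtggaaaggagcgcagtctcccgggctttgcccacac
Cdkn1b: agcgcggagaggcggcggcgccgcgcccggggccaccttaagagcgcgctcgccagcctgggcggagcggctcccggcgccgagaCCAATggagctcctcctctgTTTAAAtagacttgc

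In *Mcm6* a pair of E2F matches on opposite strands overlapped, at positions -110 and -106 from the start, and another began at -47. The *Top2a* window held 6 CCAAT matches in all and a CHR that began at -23, and in the *Plk1* stretch a CHR began at -29 and another at -89. The CHR letters of the mitotic genes lay close to the start: 19 of their 24 matches (79.2%) began at -100 or later, with a median position of -21, beside 40.8% and -127 for the 11715 matches in all windows. In the S phase genes, the 17 CCAAT matches had a median position of -50, beside -92 in all windows. A match of letters is a description and not evidence that a factor binds there.

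**Figure D1:**
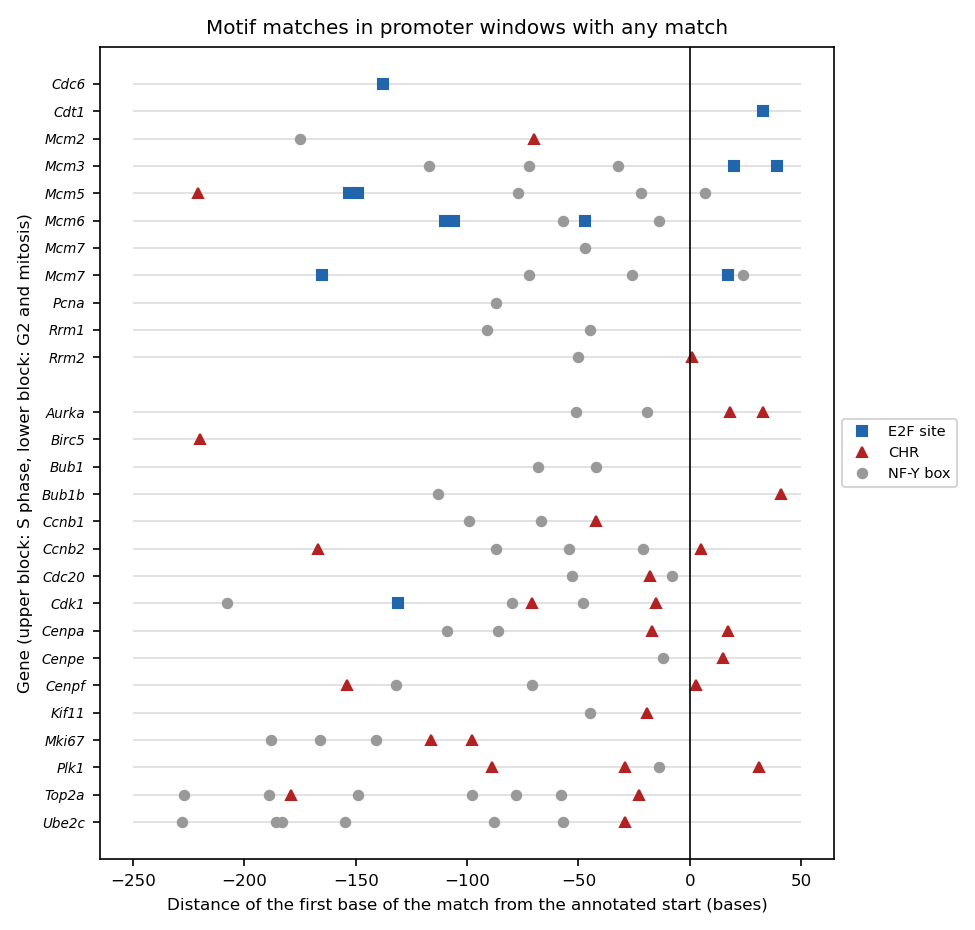
Positions of E2F, CHR and CCAAT (NF-Y box) matches in the promoter windows of S phase genes (upper block) and of G2 and mitosis genes (lower block) that hold any match, with distance in bases from the annotated start on the x axis and 1 line per window. Triangles (CHR) gather around the start in the lower block, with a median position of -21, and all squares (E2F) but that of *Cdk1* are in the upper block.

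Expression was given as RPKM, the reads on a gene scaled to its exon length in kilobases and to the mapped reads of the library, so levels can be set side by side between genes. The step between the lowest values put the depth at about 28396852 mapped reads in CvP and 27986004 in Epi, and 1 read in a row of 0.1 kb was worth 0.352 and 0.357 RPKM. Ratios are CvP over Epi, with 95% exact (Clopper-Pearson) intervals from estimated reads that cover counting error only. The table as a whole leaned to CvP: over the 12549 rows that reached 1 RPKM in at least one tissue (the tested rows), the median ratio was 1.42 (log2 0.50, from ratios of RPKM + 0.1). Each gene was therefore set beside both 1 and 1.42. The 10 taste bud markers checked summed to 512 RPKM in CvP and 6.17 in Epi, where *Pkd2l1* and *Kcnq1* were listed at 0. The Epi library held 410 summed RPKM of 5 salivary gland genes (10.3 in CvP) and 48.0 of 7 skeletal muscle genes (4.36 in CvP).

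Nearly all cell cycle genes were higher in the papillae, by modest ratios. Of the 47, 46 had a higher RPKM in CvP, beside 78.1% of all tested rows, and the exception was *Cdkn1a*. For 45 of them the counting interval lay above 1, but for only 26 did it lie above 1.42, for 17 it held that value and for 4 it lay below. A CvP level at least 2-fold higher was found for 15 members (31.9%), beside 27.2% of all tested rows, and a level at least 2-fold lower for none, beside 3.6%. The first count depended on the scaling: after division of every ratio by the median ratio of rows that reached 1 RPKM in both tissues (1.31), *Bub1*, *Cdkn1c*, *Cenpa* and *Plk1* remained (4 members), while the split of all tested rows went from 3417 higher and 452 lower to 2238 and 859, and after rescaling each library to the same sum 26 members passed. The median ratio was larger class by class in the order of the cycle, at 1.47 for G1 and G1/S regulators, 1.64 for S phase and 2.01 for G2 and mitosis. No member met the study's criteria for enrichment in CvP, an RPKM above 10 with a ratio above 3, which 435 of all 18498 rows (2.35%) met. The paper reports a larger number of genes for these criteria, and the difference was not examined. In bulk tissue fewer cells of a type and less RNA per cell cannot be told apart.

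**Figure D2:**
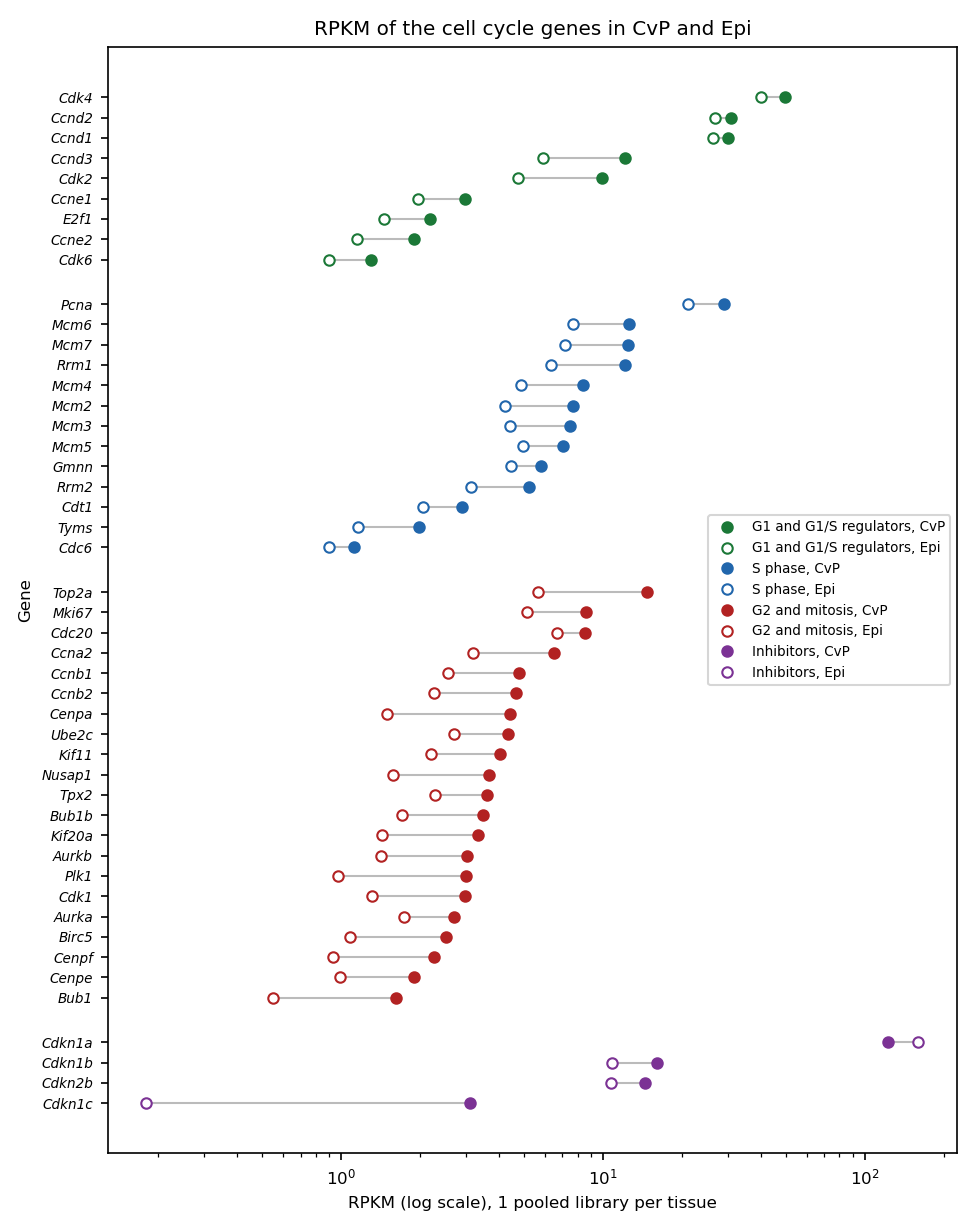
RPKM (x axis, log scale) of the 47 genes in CvP (filled circles) and Epi (open circles), 1 pooled library per tissue, in 4 classes ordered by CvP level. The filled circle lies to the right of the open one for 46 genes, and *Cdkn1a* is the exception.

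Among the 9 regulators of G1 and of entry into S phase, the abundant ones differed least between the tissues. *Ccnd3* (cyclin D3) and *Cdk2* were the only 2 at least 2-fold higher in CvP (22.2%), beside 27.2% of all tested rows. All 9 regulators had the higher value in CvP, beside 78.1% of all tested rows. *Cdk4*, the kinase partner of the D-type cyclins, had the highest level, 49.33 RPKM in CvP and 40.13 in Epi (ratio 1.23, interval 1.16 to 1.3). *Ccnd1* (cyclin D1) had 29.99 and 26.21 RPKM (ratio 1.14, 1.09 to 1.2). *Ccnd2* (cyclin D2) stood at 30.81 and 26.67 RPKM (ratio 1.16, 1.11 to 1.2). These 3 genes had intervals above 1 and wholly below the median ratio of the table, and divided by the median of rows that reached 1 RPKM in both tissues (1.31) their ratios turned to 0.936, 0.872 and 0.88.

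The third D-type cyclin differed more. *Ccnd3* (chr17:47642000-47736637 on NCBI37/mm9, the build of all gene positions below, 7 exons) had 12.12 RPKM in CvP and 5.91 in Epi, a ratio of 2.05 (1.8 to 2.34). Within a library, *Ccnd3* stood at 0.404 of the *Ccnd1* level in CvP and at 0.225 in Epi. A single scaling factor per library cannot move this comparison, but a scaling by level can. Measured from the median of all rows at their level, the log2 ratios were 0.45 for *Ccnd3* and -0.08 for *Ccnd1*. *Cdk2* (chr10:128134995-128142107, 8 exons), the partner of cyclins E and A, had 9.87 and 4.74 RPKM, a ratio of 2.08 (1.82 to 2.38). It stood at 0.2 of the *Cdk4* level in CvP and at 0.118 in Epi. *Ccnd3* shares 353 exon bases with *Bysl* on the opposite strand, which was at 5.89 RPKM in CvP and 6.49 in Epi.

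The other regulators of this class were low. *Ccne1* (cyclin E1) was at 2.98 RPKM in CvP and 1.96 in Epi (ratio 1.52, 1.19 to 1.97). *Ccne2* (cyclin E2) was at 1.89 and 1.15 RPKM (ratio 1.64, 1.26 to 2.13). *E2f1*, an activating E2F factor, had 2.19 and 1.46 RPKM (ratio 1.5, 1.15 to 1.94), and the kinase gene *Cdk6* had 1.3 and 0.9 RPKM (ratio 1.44, 1.11 to 1.9). All 4 intervals held 1.42, from 94 to 166 reads per library. At this depth these genes could not be set apart from the median ratio of the table. At 1 to 3 RPKM, where all 4 lay, the median of all rows was 1.9-fold.

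The 13 S phase genes lay in a narrow band. All 13 had the higher value in CvP, beside 78.1% of all tested rows, with ratios from 1.24 to 1.92. None reached 2-fold, beside 27.2% of all tested rows. Of the 13, 9 lay at 3 to 10 RPKM, where 23.4% of tested rows were at least 2-fold higher. The median log2 ratio of the 13 was 0.72, and 6 of 13 intervals lay above 1.42 while none lay below it. *Rrm1*, the large subunit of ribonucleotide reductase, which makes deoxynucleotides, had the highest ratio, with 12.11 RPKM in CvP and 6.3 in Epi (1.92, 1.75 to 2.11). Its small subunit *Rrm2*, the member whose level follows S phase, had 5.22 and 3.14 RPKM (1.66, 1.38 to 1.99).

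The 6 subunits of the replicative helicase, *Mcm2* to *Mcm7*, kept close to one another. They summed to 55.8 RPKM in CvP and 33.3 in Epi (ratio 1.68), and their log2 ratios ran only from 0.51 to 0.85. *Mcm2* had the largest ratio of the complex, with 7.7 and 4.23 RPKM (1.82, 1.61 to 2.06). *Mcm5* had the smallest, with 7.06 and 4.94 RPKM (1.43, 1.27 to 1.61), and was the only subunit whose interval held 1.42. *Mcm4* (8.42 and 4.85 RPKM) and *Mcm7* (12.48 and 7.17 RPKM) both had a ratio of 1.74. *Mcm6* (12.61 and 7.66 RPKM) stood at 1.65 and *Mcm3* (7.48 and 4.42 RPKM) at 1.69.

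The genes that load the helicase had smaller ratios than most of its subunits, with wide intervals. *Cdc6*, a loading factor, had 1.12 RPKM in CvP and 0.9 in Epi (ratio 1.24), and its interval of 0.975 to 1.6 was the only one in the class that held 1. *Cdt1*, which acts with it, had 2.89 and 2.05 RPKM (1.41, 1.12 to 1.78). *Gmnn* (geminin), which holds CDT1 inactive after S phase begins, had 5.78 and 4.44 RPKM (1.3, 1.02 to 1.66), or 0.992 when divided by 1.31, the median ratio of rows that reached 1 RPKM in both tissues. The same division put *Cdc6* at 0.948.

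*Pcna*, the sliding clamp of the polymerases, was the most abundant S phase gene, at 28.87 RPKM in CvP and 21.18 in Epi (1.36, 1.25 to 1.49). *Tyms* (thymidylate synthase) had 1.99 and 1.16 RPKM (1.72, 1.37 to 2.15). The levels of *Pcna* may hold reads of annotated pseudogene copies, and how reads with several matches were placed is not given in the sources used here.

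The 21 genes of G2 and mitosis had the largest median ratio of the 3 phases. All 21 were higher in CvP, beside 78.1% of all tested rows, and the ratios ran from 1.28 to 3.09. By at least 2-fold, 12 of them (57.1%) were higher, beside 27.2% of all tested rows. Of the 21, 13 lay at a geometric mean of 1 to 3 RPKM, where 46.8% of tested rows were at least 2-fold higher. For 17 of 21 the interval lay above 1.42 and for none below it. The median of all rows was 1.9-fold at 1 to 3 RPKM and 1.49-fold at 3 to 10. The 21 genes were also the lowest expressed class. Their median percentile among all rows was 49.3 in CvP and 48.6 in Epi, beside 63.6 and 62.3 for the S phase genes. The members nearest to the 2-fold line were *Ccna2*, just inside at log2 1.00, and *Bub1b*, just outside at 0.98.

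**Figure D3:**
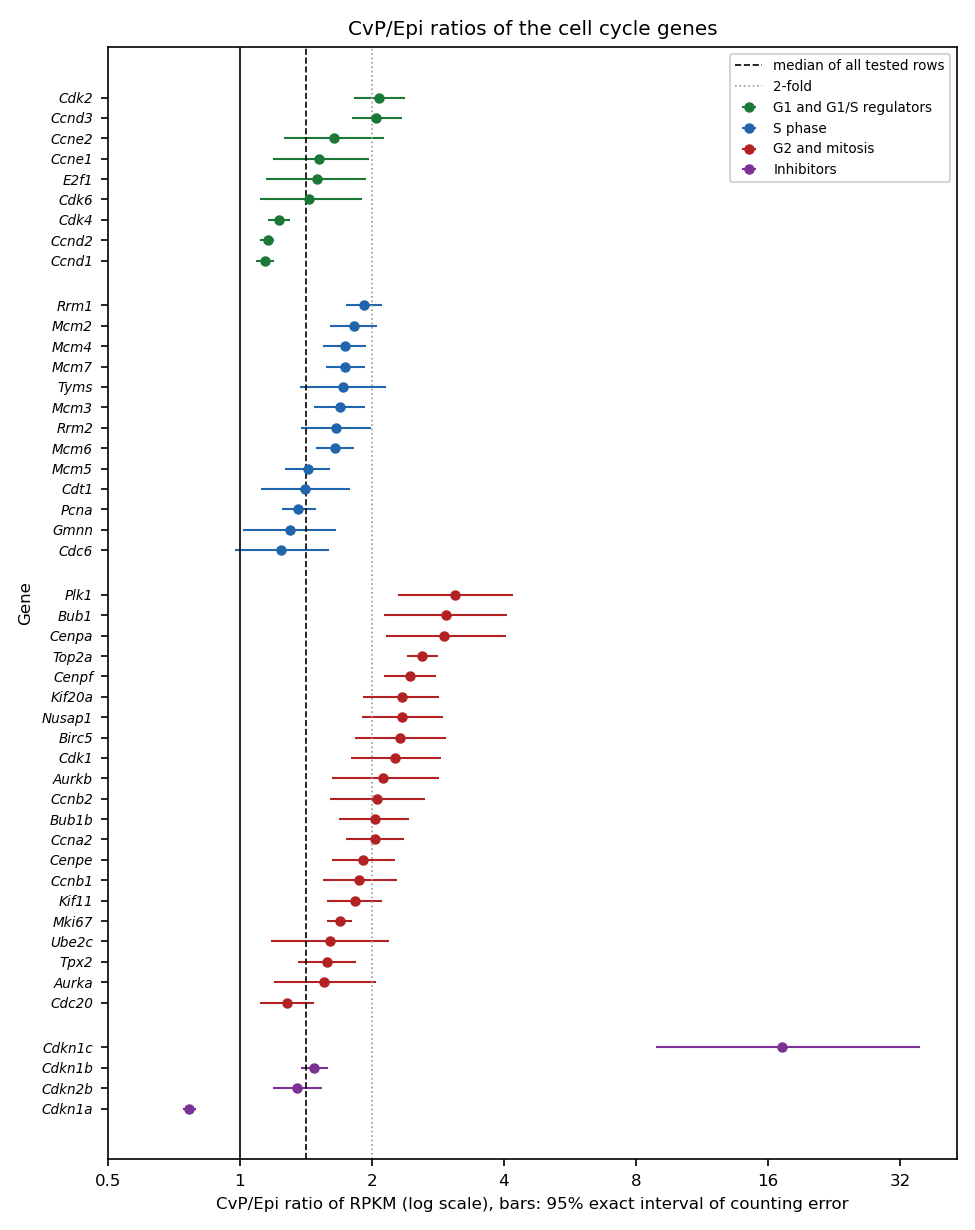
CvP/Epi ratio of RPKM (x axis, log scale) of the 47 genes, 1 pooled library per tissue. Points are the ratios, bars their 95% exact intervals of counting error, the dashed line the median ratio of all tested rows (1.42) and the dotted line 2-fold. Red points (G2 and mitosis) reach farther right than blue ones (S phase), and *Cdkn1c* (17.2) and *Cdkn1a* (0.768) mark the ends.

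Among the cyclins and kinases that drive mitosis, *Plk1* (polo-like kinase 1, chr7:129302951-129313389, 10 exons) had the largest ratio of the class, with 3.0 RPKM in CvP and 0.97 in Epi (3.09, 2.3 to 4.2, from 188 and 60 reads). *Cdk1*, the kinase that triggers mitosis, had 2.96 and 1.31 RPKM (2.26, 1.79 to 2.87). Its partners were close to 2-fold: *Ccna2* (cyclin A2) had 6.51 and 3.2 RPKM (2.03, 1.75 to 2.37). *Ccnb1* (cyclin B1) had 4.77 and 2.55 RPKM (1.87, 1.55 to 2.28) and *Ccnb2* (cyclin B2) 4.65 and 2.26 RPKM (2.06, 1.61 to 2.65). The 2 Aurora kinases differed in ratio, with overlapping intervals. *Aurkb*, of the chromosomal passenger complex, had 3.01 and 1.42 RPKM (2.12, 1.62 to 2.84), and *Aurka*, of the spindle poles, had 2.7 and 1.73 RPKM (1.56, 1.2 to 2.05). *Birc5* (survivin), another passenger protein, had 2.51 and 1.08 RPKM (2.32, 1.83 to 2.96).

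The centromere and checkpoint genes included some of the largest ratios. *Cenpa*, the histone H3 variant of centromeres (chr5:30969275-30977199, 5 exons), had 4.4 RPKM in CvP and 1.5 in Epi (2.93, 2.16 to 4.05). *Bub1*, a kinase of the spindle checkpoint, was the lowest member of the class, at 1.62 and 0.55 RPKM (2.95, 2.13 to 4.07, from 157 and 53 reads). *Bub1b* (BubR1), of the same checkpoint, had 3.47 and 1.71 RPKM (2.03, 1.68 to 2.43). *Cenpf*, a large kinetochore protein, had 2.27 and 0.93 RPKM (2.44, 2.13 to 2.81). The kinetochore motor *Cenpe* had 1.89 and 0.99 RPKM (1.91, 1.62 to 2.26). All 5 intervals lay above 1.42. At 1 to 3 RPKM, where all 5 genes lay, the median of all rows was 1.9-fold, and the intervals of *Bub1b* and *Cenpe* held that value.

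The spindle motors and their partners had ratios from 1.58 to 2.34. *Kif20a*, a kinesin of cytokinesis, had 3.34 RPKM in CvP and 1.43 in Epi (2.34, 1.91 to 2.85), and *Nusap1*, which binds spindle microtubules, had 3.68 and 1.57 RPKM (2.34, 1.9 to 2.9). *Kif11*, the kinesin that pushes the poles apart, had 4.03 and 2.2 RPKM (1.83, 1.58 to 2.11). *Tpx2*, the activator of Aurora A, had 3.61 and 2.28 RPKM (1.58, 1.36 to 1.84), close to the ratio of *Aurka* itself. *Nusap1* held none of the motif letters in its window, and its ratio exceeded those of *Ccnb1* and *Cdk1*, which held both elements, with overlapping intervals.

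Of the 2 members that act with the anaphase-promoting complex, *Cdc20* had the smallest ratio of the class. *Ube2c* lay above *Aurka* (1.56) and *Tpx2* (1.58), with overlapping intervals. *Cdc20*, the activator of the complex, had 8.54 RPKM in CvP and 6.69 in Epi (1.28, 1.11 to 1.48). Divided by the 1.31 of rows that reached 1 RPKM in both tissues, its ratio was 0.972. *Ube2c*, the ubiquitin-conjugating enzyme of the complex, had 4.32 and 2.69 RPKM (1.61, 1.18 to 2.19). Both share exon bases with a gene on the opposite strand that was higher in Epi: 53 bases with *Elovl1* (126.46 RPKM in CvP, 247.61 in Epi) for *Cdc20*, and 592 bases with *Tnnc2*, a muscle troponin (0.76 and 11.08 RPKM), for *Ube2c*. Whether the counting used strand is not given in the sources used here, and the part of these neighbours in the values was not tested.

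The 2 genes most used as marks of dividing cells were both higher in CvP, by different ratios. *Top2a*, the topoisomerase that untangles sister chromatids (chr11:98854261-98885503, 36 exons), had 14.72 RPKM in CvP and 5.63 in Epi, the highest level of the class in CvP and a ratio of 2.61 (2.41 to 2.83, from 2182 and 823 reads). *Mki67*, which codes for the Ki-67 protein (chr7:142881471-142908062, 14 exons), had 8.63 and 5.12 RPKM, a ratio of 1.69 (1.58 to 1.8, from 2469 and 1444 reads). The intervals did not overlap, and *Top2a* stood at 1.71 times the *Mki67* level in CvP and at 1.1 times in Epi. Both are among the best counted members, so that counting error is small beside this gap, while spread between animals could not be measured.

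The 4 CDK inhibitors did not move together. *Cdkn1a* (p21) was by far the most abundant of the 47 genes, at 123.06 RPKM in CvP and 160.14 in Epi, and the only one lower in CvP (ratio 0.768, 0.744 to 0.794). *Cdkn1b* (p27) had 16.01 and 10.79 RPKM (1.48, 1.38 to 1.59). *Cdkn2b* (p15), an inhibitor of CDK4 and CDK6, had 14.47 and 10.7 RPKM (1.35, 1.19 to 1.54). The intervals of *Cdkn1b* and *Cdkn2b* held 1.42, the median ratio of all tested rows. At 10 to 30 RPKM, where both lay, the median of all rows was 1.2-fold. The *Cdkn1b* interval lay above that value and the *Cdkn2b* interval held it.

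*Cdkn1c* (p57), an imprinted inhibitor known from cells that leave the cycle, stood alone. It was at 3.1 RPKM in CvP and 0.18 in Epi, a ratio of 17.2 with a wide interval of 8.89 to 35.6, since the Epi value rested on about 10 reads (170 in CvP). With a pseudocount of 1 added to both values the ratio was 3.47. It lies on chr7:150644244-150646955 (minus strand, 4 exons) and shares no exon base with another annotated gene. Its percentile among all rows was 47.0 in CvP and 29.2 in Epi. Set against its own family within each library, *Cdkn1c* was at 0.194 of the *Cdkn1b* level in CvP and at 0.0167 in Epi. Summed, the 4 inhibitors came to 157 RPKM in CvP and 182 in Epi, a quotient of 0.862 set almost wholly by *Cdkn1a*.

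Within each library the balance between the phases also differed. These quotients do not change with a single scaling factor per library, but a scaling by level could move them. The summed RPKM of the mitotic genes was 94.6 in CvP and 47.8 in Epi, that of the S phase genes 114 and 72.4, and that of the G1 and G1/S regulators 140 and 109. Mitotic over S phase RPKM was 0.832 in CvP and 0.66 in Epi. Without *Top2a* and *Pcna*, the largest term of each sum in CvP, these became 0.942 and 0.823, so the gap narrowed from 1.26-fold to 1.14-fold. Mitotic over G1 and G1/S RPKM was 0.674 and 0.438 (1.54-fold, or 1.47-fold without *Top2a*).

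Ratio and level were linked across the whole table, and this bears on each class. Below a geometric mean of 1 RPKM, where *Cdkn1c* lay, the median of all rows was 1.5-fold. Between 1 and 3 RPKM it was 1.9-fold, and it declined to 1.49-fold at 3 to 10, 1.2-fold at 10 to 30 and 1.0-fold at 30 to 100 RPKM, and at 100 or more it was 0.778. Of the 21 mitotic genes, 13 lay at 1 to 3 RPKM, where 9 of them and 46.8% of all tested rows were at least 2-fold higher in CvP. The other 8 lay at 3 to 10 RPKM, where 3 of them and 23.4% of tested rows passed. Of the S phase genes, 9 lay at 3 to 10 RPKM and none passed. Measured from the median of their own level range, the class medians on the log2 scale were 0.24 for G2 and mitosis, 0.14 for S phase, -0.08 for G1 and G1/S regulators and 0.23 for the inhibitors. The order of the 3 phases stayed, with a smaller gap between G2 and mitosis and S phase. *Cdkn1a* had a log2 ratio of -0.38 in a range whose median was -0.36, and *Cdk4* one of 0.30 in a range whose median was 0.00.

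**Figure D4:**
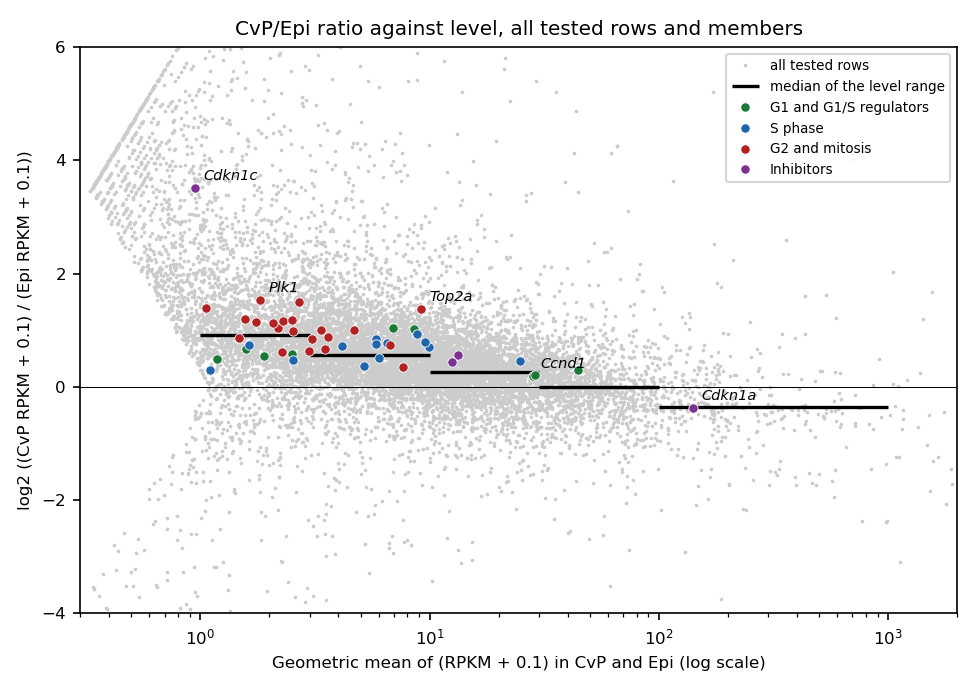
Log2 ratio of (RPKM + 0.1) against the geometric mean of RPKM + 0.1 (log axis) for all tested rows (grey; rows beyond the axis limits are not drawn) and the 47 genes (coloured by class), with the median of all rows in each level range as black bars. From 1 to 3 RPKM upward the bars step down from left to right, and most members lie between 1 and 10 RPKM, near or above them.

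Other genes of the pathway, from lists that do not include the 47, gave a like order of medians, which measured from the median of the level range held for mitosis (0.29) but not between the replication genes (-0.03) and the regulators (0.05). The lists were chosen with earlier results of these data known. Rows annotated with mitosis, without the 47, gave 28.2% at least 2-fold higher in CvP and a median log2 ratio of 0.60. The shares below are to be read beside the 27.2% of all tested rows at least 2-fold higher in CvP, and the 46.8% at 1 to 3 RPKM. Of 63 further mitosis genes, 59 passed the filter on RPKM and 33 (55.9%) were at least 2-fold higher in CvP, none lower, with a median log2 ratio of 1.05. The highest ratios among them were those of *Nek2*, a centrosome kinase (5.29 RPKM in CvP, 1.36 in Epi), *Kif23*, a kinesin of the midzone (7.7 and 2.2 RPKM), and *Cdc25c*, a phosphatase that activates CDK1 (1.91 and 0.55 RPKM). The lowest were *Cdca7* (15.27 and 18.49 RPKM), *Cdca8*, a passenger protein (5.01 and 4.38 RPKM), and *Smc4*, of condensin (9.23 and 7.19 RPKM).

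Of 43 further replication genes, 42 passed the filter, 8 (19.0%) were at least 2-fold higher, none lower, and the median was 0.65. The highest were *Cdc7*, the kinase that fires origins (3.77 and 1.3 RPKM), *Pola2*, of DNA polymerase alpha (4.04 and 1.51 RPKM), and *Pold3*, of polymerase delta (9.15 and 3.63 RPKM). *Chaf1a*, a chaperone that lays histones on new DNA (4.74 and 7.28 RPKM), went the other way with an interval of 0.571 to 0.743, and *Pold2* (7.83 and 7.95 RPKM) and *Gins2* (2.52 and 2.04 RPKM) followed it at the low end.

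Of 38 further regulators of the cycle, 34 passed the filter, 5 (14.7%) were at least 2-fold higher, none lower, and the median was 0.56, near that of all rows. *Ccng2* (cyclin G2), known from cells that stop dividing, was at 25.75 RPKM in CvP and 10.83 in Epi, *Tfdp2*, a partner of E2F factors, at 4.7 and 2.05 RPKM, and *Wee1*, the kinase that holds CDK1 back, at 4.54 and 1.99 RPKM. At the low end were *Myc*, a driver of growth (12.44 and 20.53 RPKM), *Rb1*, the retinoblastoma gene (11.7 and 12.68 RPKM), and *E2f2* (2.38 and 2.54 RPKM).

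The further inhibitors were spread on both sides, as the 4 members were. Among 13 symbols with 14 rows, 13 rows passed the filter, 1 was at least 2-fold higher (the second row of *Cdkn2d*, whose rows gave 1.85 and 1.1 RPKM at one place and 3.65 and 1.49 at another) and none lower, with a median of 0.24. *Btg2* (42.16 and 21.22 RPKM), *Pkmyt1*, a kinase that restrains CDK1 (5.84 and 2.99 RPKM), and *Gadd45g* (9.4 and 4.91 RPKM) had the highest ratios outside *Cdkn2d*. *Sfn* (14-3-3 sigma), a p53 target of keratinocytes like *Cdkn1a*, was at 482.75 RPKM in CvP and 794.11 in Epi (ratio 0.608, 0.598 to 0.618), and *Btg1* (39.95 and 54.94 RPKM) and *Gadd45b* (19.57 and 22.82 RPKM) were lower in CvP as well.

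**Figure D5:**
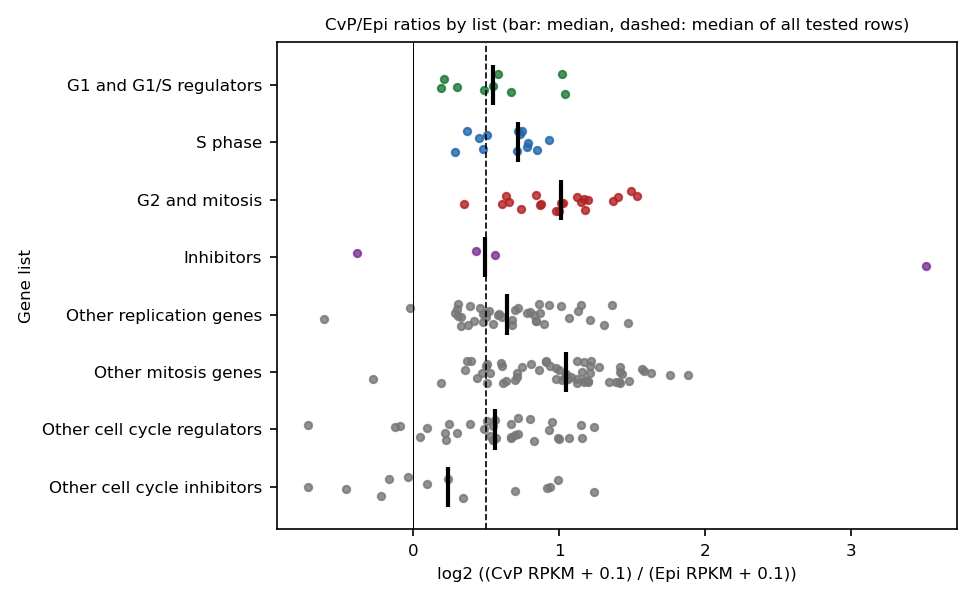
Log2 ratio of (RPKM + 0.1), CvP over Epi, for each tested gene of the 4 member classes (coloured) and of 4 lists of other cell cycle genes (grey), 1 pooled library per tissue. Black bars are list medians and the dashed line is the median of all tested rows (0.50). The medians of both mitosis lists lie near 1, and those of the regulators near the dashed line.

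Markers of cell types also differed between the 2 dissections. The 11 suprabasal keratinocyte markers, of cells that have left the cycle, summed to 32700 RPKM in CvP and 87400 in Epi, led by *Krt13* (17548.78 and 47814.69 RPKM) and *Krt4* (11800.96 and 22405.6 RPKM), and 7 of 11 were at least 2-fold lower in CvP. The 10 basal markers, of the layer that divides, summed to 2700 and 3410 RPKM. Of these, 8 of 10 were higher in CvP (median log2 ratio 0.77), beside 78.1% of all tested rows. At least 2-fold higher were 4, beside 27.2% of all tested rows, and at least 2-fold lower 1, beside 3.6%. Among the basal markers *Krt5* was at 1505.71 and 1270.54 RPKM and *Krt14* at 294.83 and 1140.2 RPKM. All 10 taste bud markers were at least 2-fold higher in CvP, led by *Gnat3* (127.11 and 0.03 RPKM) and *Krt8* (112.64 and 0.36 RPKM).

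Cells of other kinds differed too. The 12 immune markers summed to 95.6 RPKM in CvP and 28.1 in Epi, where *Cd3e* and *Cd79a* were listed at 0, with *Cd74* (60.56 and 19.9 RPKM) and *Cd68* (10.81 and 4.45 RPKM) the highest, and all 8 that passed the filter were at least 2-fold higher. The 6 fibroblast markers summed to 27.5 and 128 RPKM, nearly all of it *Dcn* (26.07 and 127.62 RPKM), with *Pdgfra* at 1.3 and 0.07. The 5 endothelial markers with a row summed to 3.09 and 0.51 RPKM, and 4 of the 5 were higher in CvP. Only *Tek* (2.49 and 0.07 RPKM) passed the filter and made most of the CvP sum. The others were at 0.28 RPKM or less in both tissues. Of the 5 salivary gland genes, 4 were at least 2-fold lower in CvP and *Aqp5* went the other way (6.09 RPKM in CvP, 0.69 in Epi). The gland and muscle genes of Epi were led by *Lipf* (1.96 and 313.42 RPKM), *Amy1* (0.85 and 80.48 RPKM), *Acta1* (0.86 and 12.88 RPKM) and *Ckm* (0.67 and 10.56 RPKM). Of 12 housekeeping genes with a row, 2 were at least 2-fold higher in CvP and none lower, with a median log2 ratio of 0.29, and *Rplp0*, a ribosomal protein gene, was at 577.13 and 895.8 RPKM. The part of these differences in the cell cycle ratios was not tested.

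Over all genes, the ratios differed little with the motif letters. Among all genes with a window and a tested row, the 785 with both a CHR and a CCAAT box had a median log2 ratio of 0.52, and 27.0% were at least 2-fold higher in CvP, beside 0.50 and 26.5% of the 7850 others. The 18 members with both had a median of 0.86 and the 19 without both 0.71. Of the genes with an E2F site, 392 in all, 20.9% were at least 2-fold higher, with a median of 0.53, beside 26.8% and 0.50 of the genes with none.

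The class pattern was alike among members with no overlapping gene. Of the 47 members, 13 share exon bases with another annotated gene. Among the 34 that share none, 10 were at least 2-fold higher in CvP, beside 27.2% of all tested rows. By class these were 1 of 4 G1 and G1/S regulators, 0 of 11 S phase genes, 8 of 15 mitotic genes and 1 of 4 inhibitors. The largest overlap was that of *Kif20a* with *Cdc23* (1259 bases, opposite strand), and *Cdc23*, a subunit of the anaphase-promoting complex, was at 7.55 RPKM in CvP and 3.72 in Epi. *Ccne2* shares 609 bases with *Ints8* (6.81 and 5.25 RPKM), on the opposite strand. *Ccna2* shares 512 with *Exosc9* (12.65 and 10.53 RPKM), also on the opposite strand. Both neighbours had a higher level than the member, and their part in its value was not tested.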

How the data were processed

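mRNA (poly(A) selected, single-end reads of 75 bases) was sequenced from 1 pooled library of CvP and 1 of Epi. The authors mapped reads with Bowtie 0.12.7 to NCBI37/mm9 and obtained RPKM with ERANGE over an exon model of each gene, and the options used are not given in the sources used here. The deposited table gives the RPKM in both tissues, a gene length in kb and the authors' own CvP/Epi ratio, which was not used.

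Genes were found by symbol. The 47 members, their classes and the lists of other genes were chosen with earlier results of these data known. All members are named, and so are the 3 highest and 3 lowest ratios of each list of other cell cycle genes that reached 1 RPKM in at least one tissue and the 2 most abundant genes of each marker list, except 1 gene that is not reported here. Log2 ratios used a pseudocount of 0.1, which understates the differences of low genes, and the rows past the same limit. Ratios of single genes used no pseudocount. Depth was read from the RPKM step in 163 rows of 0.1 kb. In rows of at most 0.5 kb, 96.4% of 331 CvP and 97.4% of 308 Epi values under 20 reads were whole reads within 0.1. RPKM depends on gene length, so reads per gene are estimates, taken with the length in the table or, where shorter, that of the gene's longest GENCODE M1 coding transcript, and intervals cover counting error only. Of 17545 rows set beside GENCODE M1, 17345 (98.9%) overlapped the gene of the same name. RefSeq promoter windows were matched by symbol. *Ccnd1*, *Ccnd2*, *Ccne2*, *Gmnn*, *Mcm4*, *Aurkb*, *Ccna2*, *Kif20a*, *Tpx2* and *Cdkn1c* had none in the table used.

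The calculations were checked on simulated data. Other pseudocounts, filters, scalings, fold limits and choices of rows were tried, and the restriction to genes without overlap, the sums without *Top2a* and *Pcna*, the annotation terms and the neighbours of *Cdkn1c* were added after the data had been seen. Python 3.11.15, numpy 2.4.6, pandas 2.3.3, scipy 1.17.1 and matplotlib 3.10.9 were used.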

Additional observations from a re-analysis of the deposited data

How the results depend on the processing

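With 1 pooled library per tissue, no result has a check by replicates, and the depth limits genes with few reads, such as *Cdkn1c* in Epi. No paired analysis was possible because there was 1 library per tissue. The count of 15 members at least 2-fold higher in CvP became 4 with a pseudocount of 1, 4 with a filter at 5 RPKM (22 members tested), 4 after division by the median ratio of rows expressed in both tissues, 26 after rescaling both libraries to a sum of 1000000 RPKM and 1 (*Cdkn1c*) after division by the median of the level range. At least 1.5-fold gave 32 members and at least 3-fold 1. With no pseudocount it was 16, with no filter or the highest row of a symbol 15, and among members with no overlapping exon 10. The count of members at least 2-fold lower was 0 in each of these settings. Over all tested rows, the share at least 2-fold higher went from 27.2% to 18.5%, 18.4%, 17.8%, 42.1% and 14.8% in the first 5 settings. Division by the median ratio moved the median log2 ratios to 0.16 (G1 and G1/S), 0.32 (S phase), 0.62 (G2 and mitosis) and 0.11 (inhibitors), and division by the level range moved them to -0.08, which reversed the first, 0.14, 0.24 and 0.23. Rescaling moved the medians to 0.84 (G1 and G1/S), 0.99 (S phase), 1.30 (G2 and mitosis) and 0.77 (inhibitors). These shifts follow from the construction of each scaling. The study's criteria, met by 0 members, were met by 1 (*Cdkn1c*) at a CvP RPKM above 3 and by 2 (*Top2a* and *Ccnd3*) at a ratio above 2. Among single ratios, division by the median ratio put *Ccnd1* (0.872), *Ccnd2* (0.88), *Cdk4* (0.936), *Gmnn* (0.992), *Cdc20* (0.972) and *Cdc6* (0.948, whose interval already held 1) below 1, and 37 ratios, that of *Cdc6* included, left their interval without a called direction being reversed. With a pseudocount of 1, 13 left it, among them *Cdkn1c* (3.47 from 17.2). Reads estimated from the listed length alter only the intervals and not the ratios. With them, whether the interval held 1 was the same for all 47.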

Other observations

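*Cdkn1c* lies in an imprinted domain, and its neighbours, which were looked at after its value had been seen, showed no single pattern. Within 400 kb on chromosome 7, the taste cell genes *Trpm5* (37.8 RPKM in CvP, 0.01 in Epi) and *Kcnq1* (14.32 in CvP, listed at 0 in Epi) lie on one side of it. *Kcnq1ot1*, the antisense transcript of the domain, was at 0.18 and 0.08 RPKM. *Cd81* (62.44 and 35.96 RPKM) was also higher in CvP. On the other side, the imprinted genes *Slc22a18* and *Phlda2* were at 14.23 and 10.53 RPKM and at 3.35 and 4.52 RPKM, with intervals of 1.2 to 1.53 and of 0.537 to 1.01 for the ratio. Farther out, *Nap1l4* (29.47 and 23.78 RPKM), *Osbpl5* (25.47 and 25.27 RPKM) and *Cars* (30.94 and 42.63 RPKM) had ratios from 0.726 to 1.24, whereas the low genes *Tnfrsf22* (1.48 and 0.71 RPKM), *Tnfrsf23* (2.51 and 0.89 RPKM), *Nadsyn1* (2.48 and 0.85 RPKM) and *Mrgpre* (0.46 and 0.08 RPKM) had ratios from 2.08 to 5.75.

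Broader annotation terms given in the deposited table showed less of a difference than the 21 mitotic members. The shares of these terms at least 2-fold higher in CvP were near or below the 27.2% of all tested rows. Of 181 rows annotated with mitosis, 171 passed the filter and 29.8% of these were at least 2-fold higher in CvP, with a median log2 ratio of 0.64. Without the members, 156 rows remained, with 28.2% and a median of 0.60. For DNA replication, 17.1% of 117 rows passed the same limit, with a median of 0.66, and for cell cycle 24.5% of 424 rows, with a median of 0.55. The pathway list of the cell cycle gave 22.2% of 108 rows and a median of 0.56.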
